A study of Danio rerio with 4 samples.

Results

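The ovary library exposed to dibutyl phthalate (DBP) and diisobutyl phthalate (DiBP) together was set against the library exposed to DBP alone, to describe what the addition of DiBP to DBP went with. The genes compared were the rows with an Ensembl zebrafish identifier whose FPKM averaged 1 or more across the study's 4 libraries, which gave 12603 of 35066 such rows. FPKM is the number of fragments scaled to transcript length and to the mapped total, so levels can be compared between genes. The row just inside this limit averaged 1.0001 FPKM and differed by 0.23 on the log2(FPKM + 1) scale between the libraries, and the row just outside it averaged 0.9999 FPKM and differed by -0.74.

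The 4 libraries came from ovaries of zebrafish (strain AB, wild type, female, 5 months of age): 1 exposed to both compounds for 30 days, 1 to DBP for 30 days, 1 to DiBP for 30 days and 1 unexposed control. The sources used here give neither the doses nor whether a library holds 1 fish or a pool. With 1 library a group there is no replicate check, so each difference below is between libraries, and no test, p-value or error can be given. In whole ovary, moreover, fewer cells of a type and less RNA per cell cannot be told apart. Differences are given as combined minus DBP on the log2(FPKM + 1) scale, where low genes show less than their true fold.

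DBP and DiBP are isomers with straight and branched butyl chains, used as plasticisers and studied for their action on hormone signalling. The zebrafish ovary holds oocytes at many stages of growth side by side. Each oocyte stores ribosomes, mitochondria and messenger RNAs for the embryo and secretes a coat of zona pellucida proteins, and a layer of granulosa and theca cells around it makes sex steroids. Both libraries had this character. The oocyte histone gene h2af1al was at 9973 FPKM in the combined library and 8679 FPKM in the DBP library, and zpax4, an egg-coat gene, was at 658 and 684 FPKM in the combined and DBP libraries.

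Summed over all rows, values came to 512635 FPKM with both compounds, 572398 FPKM with DBP, 598063 FPKM with DiBP and 534379 FPKM in the control. Absolute depth is unknown. The steps between the lowest values put the depth of the combined library at 0.973 times that of the DBP library, so by this estimate depth differed little between them. Across the 12603 genes, which are not independent replicates, log2 levels in the combined and DBP libraries had a Pearson correlation of 0.957.

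Most genes lay close together in both libraries: 10276 of 12603 (81.5%) were within 1.5-fold. At least 2-fold differences were seen at 237 genes higher in the combined library (1.88%) and 490 lower (3.89%). At the 1.5-fold level, 761 genes were higher (6.04%) and 1566 lower (12.4%). Each count of list members at that level below is to be read beside these shares. The median difference was -0.09, with an SD of 0.56 over genes. Of the 2-fold differences 32.6% were higher in the combined library, but this balance depends on the scaling: the share was 41.7% with median-of-ratios scaling (283 higher, 395 lower), 47.3% at equal totals (321 and 357) and 50.5% at equal totals without the 50 most abundant rows (334 and 327). These scalings move the median of all genes up by 0.09, 0.14 and 0.17.

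**Figure D1:**
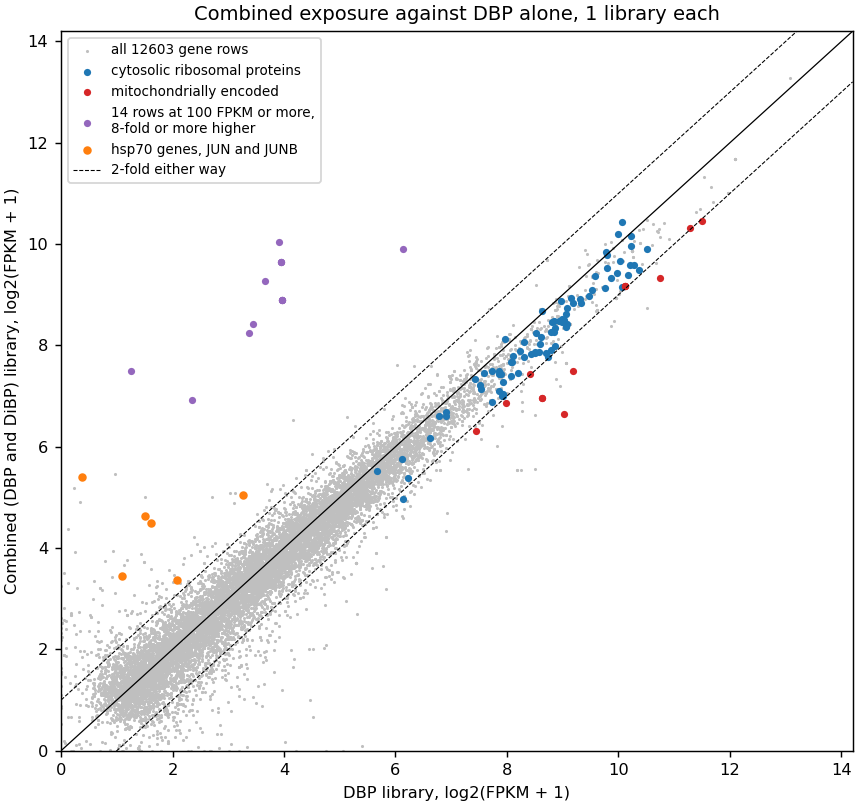
Level of each gene in the combined library (vertical axis) and in the DBP library (horizontal axis), both as log2(FPKM + 1), with 1 grey point per gene row, the diagonal of equal levels and dashed lines at 2-fold. Mitochondrially encoded genes (red) and most cytosolic ribosomal protein genes (blue) lie below the diagonal, and the hsp70, JUN and JUNB rows (orange) and 14 abundant rows without a gene name of their own (purple) above it.

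Heat-shock genes of the hsp70 family and transcription factors of the immediate-early group were among the genes with the highest differences. The hsp70 proteins are chaperones that bind unfolded proteins and are made on heat or other protein stress. hsp70l was at 41.4 FPKM in the combined library and 0.295 FPKM in the DBP library, beside 30.6 FPKM in the DiBP library and 5.00 FPKM in the control (difference 5.03). The DBP library was the low one of the 4. For hsp70.3 the combined library had 23.8 FPKM and the DBP library 1.82 FPKM, beside 28.2 FPKM with DiBP and 12.9 FPKM in the control (3.14). hsp70.1, whose values are shared with another row, was at 21.5 FPKM in the combined library and 2.07 FPKM in the DBP library, beside 21.5 FPKM with DiBP and 7.67 FPKM in the control (2.87). Again the combined and DiBP libraries were alike, the control lay between, and the DBP library was lowest.

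The rest of the chaperone list did not share this. Of 29 measured genes 4 were at least 1.5-fold higher and 2 lower, and the median was -0.08 (above 0 under another scaling), near that of all genes. HSPA5, the chaperone of the endoplasmic reticulum and the most abundant of the list, was at 866 FPKM in the combined library and 964 FPKM in the DBP library. HSPB1, a small heat-shock protein, was lower in the combined library, at 1.03 FPKM against 3.36 FPKM with DBP alone (-1.10).

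JUN, a subunit of the AP-1 transcription factor, was at 9.85 FPKM in the combined library and 1.13 FPKM in the DBP library, beside 14.9 FPKM with DiBP and 4.197 FPKM in the control (2.35). One row of JUNB, its relative, was at 32.0 FPKM in the combined library and 8.56 FPKM in the DBP library, beside 40.8 FPKM with DiBP and 13.1 FPKM in the control (1.79). A row of SOCS3, a feedback inhibitor of cytokine signalling, was at 1.95 FPKM in the combined library and listed at 0 in the DBP library, with 4.42 FPKM in the DiBP library and 1.47 FPKM in the control. For these 3 genes, as for the hsp70 genes, the DBP library was the lowest of the 4. GADD45A, a growth-arrest gene of the same list, went the other way, with 2.49 FPKM in the combined library and 17.2 FPKM in the DBP library, beside 3.38 FPKM with DiBP and 6.10 FPKM in the control (-2.38). In all, 7 of 34 immediate-early genes were at least 1.5-fold higher and 3 lower (median 0.10), beside 6.04% and 12.4% of all genes.

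Other named genes at the top of the ranking fell into several patterns over the 4 libraries. The RNA-binding protein gene raver1 was at 31.2 FPKM in the combined library and 1.84 FPKM in the DBP library, with 34.4 FPKM in the DiBP library and 31.2 FPKM in the control (3.50). Here the DBP library stood alone. The acetylcholine receptor subunit gene CHRNB3 was at 19.6 FPKM in the combined library and 0.0948 FPKM in the DBP library, with 11.0 FPKM under DiBP and 0.235 FPKM in the control (4.24). It was thus high in both DiBP-containing libraries, as was TNRC6A, a component of microRNA silencing complexes, at 6.95 FPKM in the combined library and 0.484 FPKM in the DBP library, beside 6.38 FPKM with DiBP and 1.204 FPKM in the control (2.42).

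A further 4 genes were high in the combined library and low in the other 3. The solute carrier gene slc22a7b.1, of the organic anion transporter family, was at 35.2 FPKM in the combined library and 0.181 FPKM in the DBP library, and was listed at 0 in the DiBP library and the control. st3gal7, which encodes a sialyltransferase, was at 10.3 FPKM in the combined library and 0.0428 FPKM in the DBP library, and was likewise listed at 0 in the other 2. nub1, a regulator of the ubiquitin-like protein NEDD8, was at 8.26 FPKM in the combined library and 0.222 FPKM in the DBP library, beside 0.372 FPKM with DiBP and 0.283 FPKM in the control. traf3ip2l was at 13.8 FPKM in the combined library and 1.70 FPKM in the DBP library, beside 0.822 FPKM with DiBP and 1.18 FPKM in the control.

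**Figure D2:**
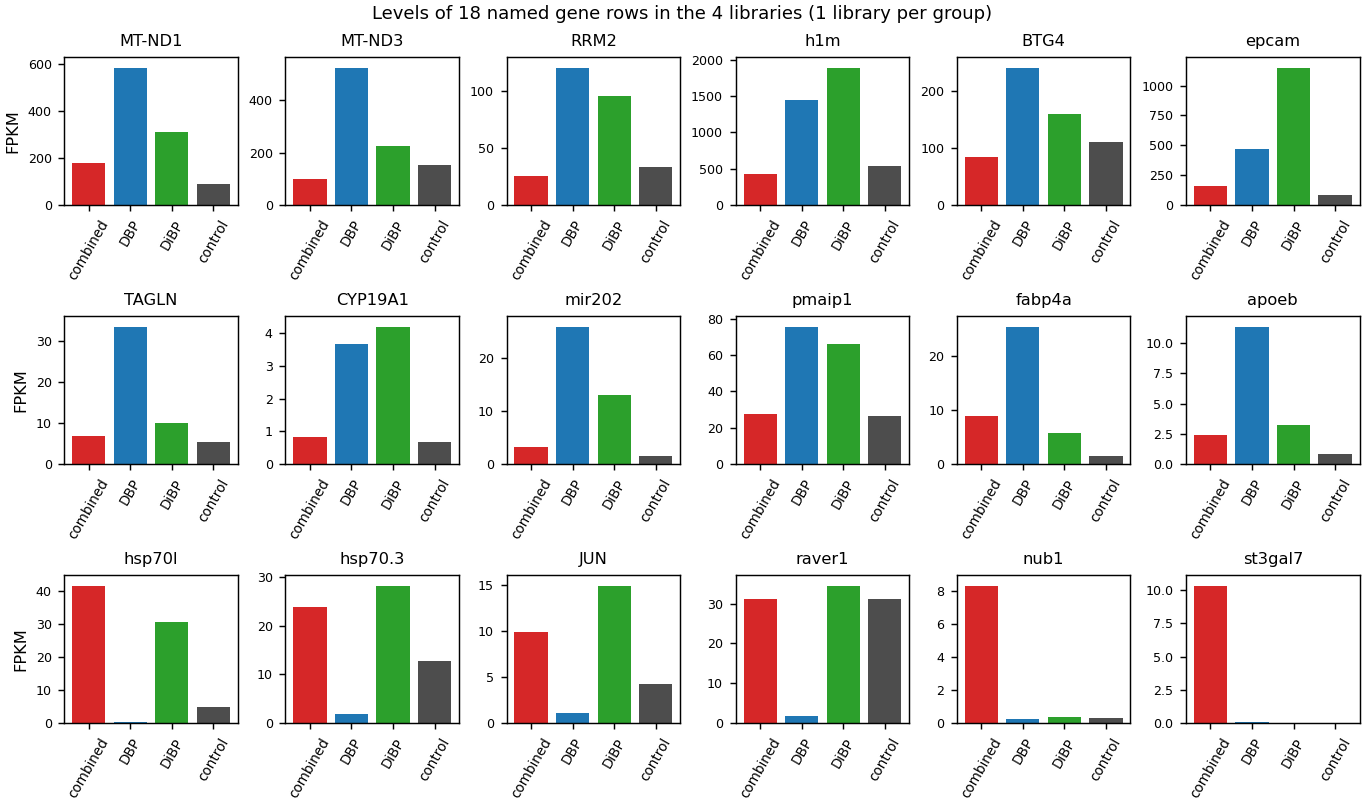
FPKM of 18 named gene rows, 1 panel per gene with its own vertical axis from 0, in the combined, DBP, DiBP and control libraries (1 library per bar, so no error bars). The upper 2 rows of panels show genes that were lower in the combined library than in the DBP library, where the combined library lay nearer to the control than the DBP library did, and the bottom row shows genes that were higher. Not all lower genes had this pattern: at DAZL, GPX8, ADCY8, CCNB1 and terb1 the DBP library lay nearer to the control. The share of all lower genes with the pattern was not counted, and picking genes by a low difference favours it.

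Several of the largest differences belonged to rows without a gene name of their own. At 14 rows, which carry 9 distinct sets of values, the level was at least 8-fold higher in the combined library and reached 100 FPKM or more. These rows ranged from 120 to 1047 FPKM in the combined library and from 1.38 to 68.9 FPKM in the DBP library, with 6.79 to 38.6 FPKM in the DiBP library and 2.69 to 59.4 FPKM in the control. One of them, zgc:158463, is listed as a ribosomal RNA gene in the RefSeq gene table of assembly GRCz12tu and was at 803 FPKM in the combined library and 14.4 FPKM in the DBP library, beside 17.1 FPKM with DiBP and 9.60 FPKM in the control. The other 13 rows have no match in that table: 8 have no symbol and 5 have clone names. Some of those without a symbol share all values with zgc:158463 and cannot be told from it. Together the 9 sets of values made up 0.946% of the summed FPKM in the combined library and 0.0259% in the DBP library. Whether these rows hold ribosomal RNA left in the libraries was not tested. Just 1 row was as far apart in the other direction at that level, si:dkey-4c23.8, listed at 0 in the combined library, at 32.5 FPKM with DBP, at 105 FPKM with DiBP and at 0 in the control.

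Among the genes lower in the combined library, those encoded on the mitochondrial genome were lower without exception. They specify core subunits of the respiratory chain and of ATP synthase, and mitochondria multiply strongly as the oocyte grows. All 13 rows, which carry 10 distinct sets of values because neighbouring genes were merged, were at least 1.5-fold lower and 8 at least 2-fold lower, with a median of -1.11 against -0.09 for all genes. Under the 3 other scalings the median was -1.01 to -0.92 and all 13 stayed at least 1.5-fold lower.

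MT-ND3, which belongs to complex I of the respiratory chain, was at 99.6 FPKM in the combined library and 522 FPKM in the DBP library, beside 224 FPKM with DiBP and 153 FPKM in the control (-2.38). The combined library was the lowest of the 4 here and the DBP library the highest. MT-ND3 shares its values with another row. MT-ND1 was at 180 FPKM in the combined library and 584 FPKM in the DBP library, beside 310 FPKM with DiBP and 89.8 FPKM in the control (-1.69). For MT-CYB, the cytochrome of complex III, the combined library had 641 FPKM and the DBP library 1717 FPKM, beside 771 FPKM with DiBP and 839 FPKM in the control (-1.42). MT-CO2, the most abundant, was at 1409 FPKM in the combined library and 2896 FPKM in the DBP library, with 1905 FPKM under DiBP and 1984 FPKM in the control (-1.04). The DBP library was the highest of the 4 at each of these genes, and the combined library lay below the control at MT-CYB and MT-CO2 and above it at MT-ND1.

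Respiratory chain subunits encoded in the nucleus differed far less. Of 78 genes, 2 were at least 1.5-fold higher and 10 lower (median -0.28), a share of lower genes near that of all genes. Under the other scalings 4 were lower and up to 3 higher (median -0.18 to -0.09). UQCRH, a small subunit of complex III, was at 84.6 FPKM in the combined library and 186 FPKM in the DBP library (-1.13), and cox8b at 7.45 and 3.21 FPKM in the combined and DBP libraries (1.01). ATP5F1B, the catalytic subunit of ATP synthase and the most abundant of the list, was at 939 FPKM in the combined library and 678 FPKM in the DBP library (0.47).

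Cytosolic ribosomal protein genes were also lower as a group. Of 47 large-subunit genes, 15 were at least 1.5-fold lower and 0 higher (median -0.43). Of 35 small-subunit genes, 14 were at least 1.5-fold lower and 0 higher (median -0.52). Most were within 1.5-fold, 53 of 82 in all. RPL29 was at 126 FPKM in the combined library and 242 FPKM in the DBP library, with 676 FPKM under DiBP and 144 FPKM in the control (-0.93). RPS28 was at 126 FPKM in the combined library and 241 FPKM in the DBP library, beside 316 FPKM with DiBP and 129 FPKM in the control (-0.92). At both genes the combined library was close to the control and the single-compound libraries were higher. Not all members followed: RPLP0, a protein of the ribosomal stalk, was at 1393 FPKM in the combined library and 1069 FPKM in the DBP library (0.38). Under the other scalings both medians stayed below 0 (-0.33 to -0.24 for the large and -0.42 to -0.33 for the small subunit), but the number at least 1.5-fold lower went down to 13 of 82.

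The mitochondrial ribosomal proteins had a median of -0.34, with 11 of 73 genes at least 1.5-fold lower and 1 higher. The share of lower genes was near the 12.4% of all genes. Under the other scalings 3 to 5 were lower and the median was -0.23 to -0.15. The higher gene was mrpl34, at 32.9 FPKM in the combined library and 7.65 FPKM in the DBP library, beside 40.7 FPKM with DiBP and 36.1 FPKM in the control (1.97), so that the DBP library stood alone. Proteasome genes had a median of -0.16, which passes above 0 under another scaling. Of 45 genes 6 were lower, a share also near the 12.4% of all genes, and 1 was higher. Under the other scalings as few as 2 were lower and up to 3 higher. The largest difference was at PSME1, an activator subunit, with 0.752 FPKM in the combined library and 5.56 FPKM in the DBP library, beside 5.22 FPKM with DiBP and 1.06 FPKM in the control (-1.91).

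**Figure D3:**
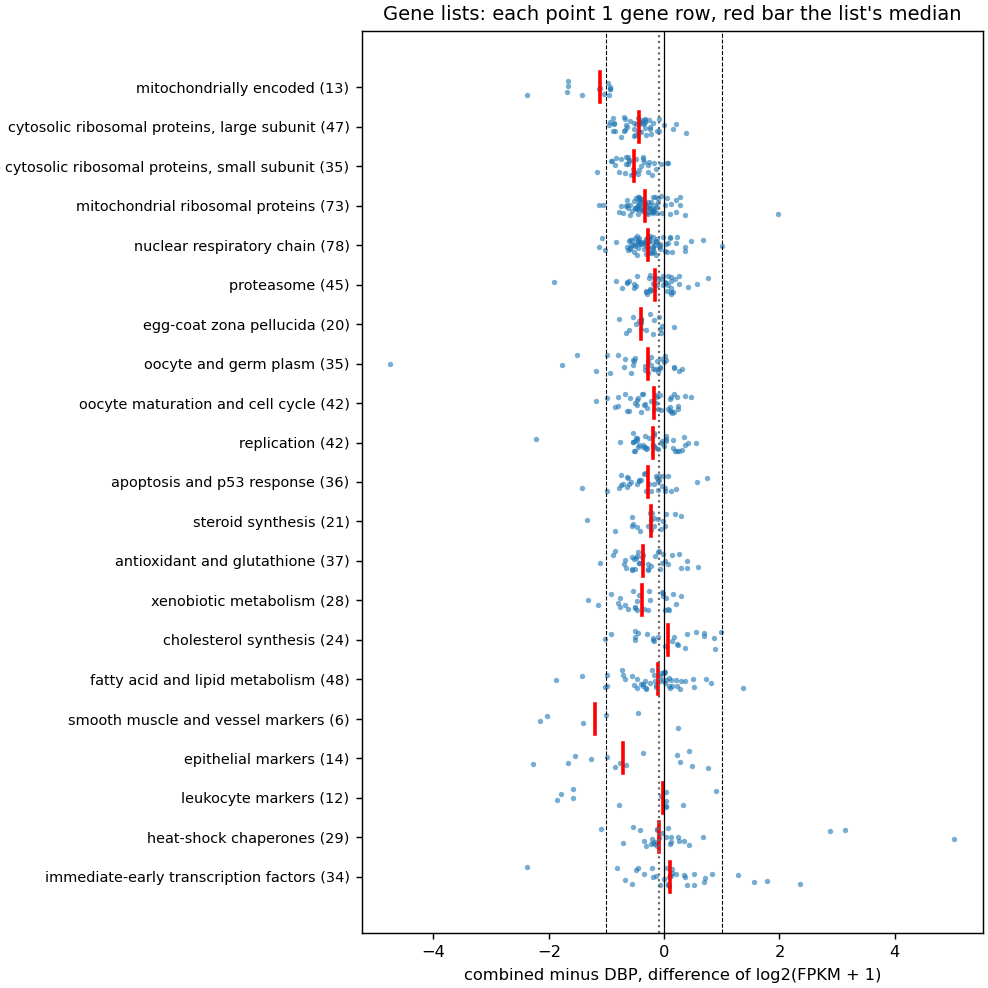
Difference in log2(FPKM + 1), combined minus DBP, of each measured member of 21 gene lists (points; number of members in brackets), with the list median as a red bar, the median of all genes as a dotted line and 2-fold as dashed lines. Mitochondrially encoded genes have a median of -1.11 and smooth muscle and vessel markers of -1.20. The latter rests on few rows, some of which pass the filter only through the DBP and DiBP libraries. Most other lists lie within 0.5 of zero and 3 hsp70 genes stand far to the right.

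Oocyte genes were lower in the combined library at several members. Of 35 genes of the oocyte and germ plasm list, 9 were at least 1.5-fold lower and 0 higher (median -0.28). Among all genes 12.4% were lower and 6.04% higher. Under the other scalings 7 or 8 were lower and the median was -0.17 to -0.09. The linker histone gene h1m was at 427 FPKM in the combined library and 1453 FPKM in the DBP library, beside 1889 FPKM with DiBP and 531 FPKM in the control (-1.76). BTG4, which promotes the clearance of maternal messenger RNA, was at 83.6 FPKM in the combined library and 240.5 FPKM in the DBP library, beside 159 FPKM with DiBP and 111 FPKM in the control (-1.51). DAZL, an RNA-binding protein of germ cells, was at 13.2 FPKM in the combined library and 31.3 FPKM in the DBP library, with 23.5 FPKM under DiBP and 25.2 FPKM in the control (-1.18). At these 3 genes the combined library was the lowest of the 4. The germ-cell gene NANOS3, which controls messenger RNA translation, was listed at 0 in the combined library and at 25.9 FPKM with DBP, beside 0 with DiBP and 10.6 FPKM in the control. A value of exactly 0 beside such levels may be a failed estimate, so it cannot be read as absence.

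The egg-coat genes were nearly all below 0, though the share at least 1.5-fold lower was near the 12.4% of all genes. Of 20 rows, which carry 16 distinct sets of values, 19 were below 0, 3 of them at least 1.5-fold lower, and 0 were at least 1.5-fold higher (median -0.41, or -0.30 to -0.21 under the other scalings, with 1 row at least 1.5-fold lower). Over all genes 7525 of 12603 were below 0. The count below 0 depends on the scaling, since rows such as zpax4 (-0.06) lie nearer to 0 than the scalings move the median. zp3d.2 was at 44.7 FPKM in the combined library and 77.7 FPKM in the DBP library (-0.78), and zpd at 17.4 and 28.0 FPKM in the combined and DBP libraries (-0.65). The merged zp2 row was at 3289 FPKM in the combined library and 4356 FPKM in the DBP library (-0.41). It is entered under several zp2 genes, and with shared values collapsed the median of the list was -0.28.

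The counts of the cell cycle, replication and meiosis lists stand beside 12.4% of all genes at least 1.5-fold lower and 6.04% higher. Genes of oocyte maturation and the cell cycle had 9 of 42 members at least 1.5-fold lower and 0 higher. Under the other scalings 5 were lower and up to 1 higher, and the median of -0.17 passes above 0. CCNA2, a cyclin of DNA replication and division, was at 20.2 FPKM in the combined library and 47.1 FPKM in the DBP library, beside 37.0 FPKM with DiBP and 18.8 FPKM in the control (-1.19). Its values are shared with another row. CCNB1, the cyclin of maturation promoting factor, was at 171 FPKM in the combined library and 309 FPKM in the DBP library, with 278 FPKM under DiBP and 256 FPKM in the control (-0.85). In the replication list just 2 of 42 genes were at least 1.5-fold lower and 0 higher. One was a row of RRM2, the small subunit of ribonucleotide reductase that makes DNA precursors, at 25.0 FPKM in the combined library and 120 FPKM in the DBP library, beside 95.1 FPKM with DiBP and 32.8 FPKM in the control (-2.22). Another, more abundant RRM2 row differed less, at 187 FPKM in the combined library and 236 FPKM in the DBP library (-0.34). It was at 129 FPKM with DiBP and 212 FPKM in the control. The meiosis and repair list had 2 of 26 lower: SYCP1, of the synaptonemal complex, at 2.21 FPKM in the combined library and 6.55 FPKM in the DBP library, and terb1, which ties telomeres to the nuclear envelope in meiosis, at 0.0591 FPKM in the combined library and 9.10 FPKM in the DBP library, beside 10.8 FPKM with DiBP and 12.2 FPKM in the control.

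Apoptosis and p53 response genes were at least 1.5-fold lower at 10 of 36 members and higher at 1 (median -0.29). Across all genes 12.4% were lower and 6.04% higher. Under the other scalings 3 to 6 were lower and 2 higher, with medians of -0.19 to -0.10. The BH3-only gene pmaip1, which promotes cell death, was at 27.3 FPKM in the combined library and 75.3 FPKM in the DBP library, beside 66.0 FPKM with DiBP and 26.4 FPKM in the control (-1.43). The survivin gene BIRC5, which inhibits apoptosis and serves cell division, was at 43.8 FPKM in the combined library and 87.6 FPKM in the DBP library, with 59.8 FPKM under DiBP and 49.5 FPKM in the control (-0.98). Genes for and against cell death were thus both among the lower members. Another stress gene, GADD45G, from the ranking of all named genes, was at 3.07 FPKM in the combined library and 25.3 FPKM in the DBP library, beside 12.0 FPKM with DiBP and 7.88 FPKM in the control (-2.69).

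Smooth muscle genes were lower in the combined library too, at low levels, while other somatic markers of the ovary were mixed. Of 6 smooth muscle and vessel rows measured, 4 were at least 2-fold lower and 0 higher (median -1.20). TAGLN, an actin-binding protein of smooth muscle, was at 6.79 FPKM in the combined library and 33.5 FPKM in the DBP library, beside 10.1 FPKM with DiBP and 5.47 FPKM in the control (-2.15). CNN2, a calponin, was at 0.946 FPKM in the combined library and 6.96 FPKM in the DBP library, with 8.31 FPKM under DiBP and 0.320 FPKM in the control (-2.03). Like MYL9 and acta2 of this list, CNN2 lay below 1 FPKM in the combined library and the control. These rows passed the filter through the DBP and DiBP libraries, so the list median depends partly on the filter. Summed over all 25 matched rows of that list, the level was 17.3 FPKM in the combined library and 58.3 FPKM in the DBP library, beside 30.8 FPKM with DiBP and 14.3 FPKM in the control. The vessel markers cdh5 and kdrl lay below the filter, at 0.144 and 0.588 FPKM in the combined library and at 0.134 and 0.498 FPKM in the DBP library. Other vessel markers were not level. tek, also below the filter, was at 0.460 FPKM in the combined library and 1.06 FPKM in the DBP library. Past the filter, ERG was at 4.22 and 6.11 FPKM in the combined and DBP libraries (-0.45). A row of CLDN5 went the other way, at 1.12 and 0.806 FPKM in the combined and DBP libraries (0.23).

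Leukocyte markers summed to 36.8 FPKM in the combined library and 85.1 FPKM in the DBP library, with 54.7 FPKM in the DiBP library and 27.3 FPKM in the control. Of 12 measured rows with 8 distinct sets of values, 5 were at least 1.5-fold lower and 1 higher, and the median was -0.02 (above 0 under another scaling). The macrophage marker MFAP4 has 6 of these rows: 2 with 12.1 FPKM in the combined library and 38.2 FPKM in the DBP library, and 4 with 1.93 FPKM in the combined library and 1.88 FPKM in the DBP library. Those 4 rows share their values, and each enters the median. Without the filter 10 of 27 leukocyte rows were at least 1.5-fold lower and 1 higher, with a median of -0.52. cd74a, the MHC class II invariant chain, was at 0.485 FPKM in the combined library and 4.39 FPKM in the DBP library, beside 2.74 FPKM with DiBP and 1.04 FPKM in the control (-1.86). The lysozyme gene lyz went the other way, with 2.64 FPKM in the combined library and 0.949 FPKM in the DBP library. The pan-leukocyte gene ptprc was near 0 in the combined library (0.0342 FPKM) and at 0.481 FPKM in the DBP library. Muscle markers summed to 8.51 and 9.28 FPKM in the combined and DBP libraries, red blood cell markers to 2.55 and 3.79 FPKM, and liver and yolk protein markers to 6.72 and 1.81 FPKM, the last with no row past the filter.

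Epithelial markers had 8 of 14 rows at least 1.5-fold lower and 1 higher (median -0.71). Without the filter 12 of 22 rows were lower and 1 higher (median -0.64). At a mean of at least 5 FPKM, 4 of 8 were lower and 1 higher (median -0.56). Over all genes 12.4% were lower and 6.04% higher. The list was not uniform, with 5 of the 14 rows above 0, beside 5078 of all 12603 genes. The 5 rows were cldn7b (0.76), the row at least 1.5-fold higher, and tjp3 (0.49), TJP1 (0.43), krt5 (0.28) and cdh1 (0.22). epcam, a cell adhesion gene, was at 160 FPKM in the combined library and 472 FPKM in the DBP library, beside 1147 FPKM with DiBP and 86.8 FPKM in the control (-1.55). The keratin gene krt15 was at 0.718 FPKM in the combined library and 7.29 FPKM in the DBP library, beside 0.991 FPKM with DiBP and 1.16 FPKM in the control (-2.27). The claudin gene cldnd, the most abundant of the list, was at 1824 FPKM in the combined library and 3301 FPKM in the DBP library, with 3699 FPKM under DiBP and 1111 FPKM in the control (-0.86). Thus epcam and cldnd were high in both single-compound libraries, and krt15 in the DBP library alone. krt15 and krt18b passed the filter only through the DBP library, so the list median depends partly on the filter. Whether cldnd comes from epithelial cells or from oocytes here was not tested. The part of other cell types in the differences of the oocyte, lipid and steroid genes was not tested.

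The list of granulosa cell markers had 5 measured rows, of which 2 were at least 1.5-fold lower and 1 higher (median -0.37). The locus of mir202, a microRNA of the gonads, was at 3.26 FPKM in the combined library and 25.8 FPKM in the DBP library, beside 13.0 FPKM with DiBP and 1.58 FPKM in the control (-2.66). This value comes from messenger RNA libraries and does not measure the mature microRNA. The aromatase gene CYP19A1, for oestrogen synthesis, was at 0.837 FPKM in the combined library and 3.65 FPKM in the DBP library, with 4.18 FPKM under DiBP and 0.677 FPKM in the control (-1.34). The FOXL2 row past the filter, a granulosa factor, was nearly level, at 1.24 FPKM in the combined library and 1.43 FPKM in the DBP library. Another FOXL2 row, below the filter, was at 0.0741 and 0.516 FPKM in the combined and DBP libraries. The higher row of the list was foxl2l, at 1.35 and 0.485 FPKM in the combined and DBP libraries (0.66). Whether foxl2l comes from granulosa cells or from germ cells here was not tested. The other measured rows of the list, mir202, CYP19A1, SERPINE2 and FOXL2, all lay below 0. Without the filter 3 of 20 rows were at least 1.5-fold lower and 1 higher, and the median was -0.09. CYP19A1 passed the filter through the DBP and DiBP libraries. The rest of the steroid synthesis list differed little, with 2 of 21 genes at least 1.5-fold lower and 0 higher (median -0.24, or -0.13 to -0.05 under the other scalings). Its share of lower genes was near the 12.4% of all genes. Besides CYP19A1 the lower gene was HSD17B4, at 3.71 FPKM in the combined library and 7.49 FPKM in the DBP library, beside 5.83 FPKM with DiBP and 10.3 FPKM in the control (-0.85). CYP11A1, which starts steroid synthesis from cholesterol, was at 67.3 FPKM in the combined library and 80.3 FPKM in the DBP library.

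The counts of hormone receptors and TGF-beta genes stand beside 6.04% of all genes at least 1.5-fold higher and 12.4% lower. Hormone receptors had 1 of 15 genes at least 1.5-fold higher and 2 lower (median 0.04), but 2 higher and 0 lower under each of the 3 other scalings (median 0.14 to 0.22). On the deposited scale these were ARNT2, a partner of the aryl hydrocarbon receptor, at 1.70 FPKM in the combined library and 0.584 FPKM in the DBP library, and the lower thyroid hormone receptor THRB (0.703 and 1.57 FPKM in the combined and DBP libraries) and oestrogen receptor ESR2 (2.66 and 4.50 FPKM). In TGF-beta family signalling (2 of 26 higher, 5 lower, median -0.13), SMAD4, the shared mediator of the pathway, was at 22.1 FPKM in the combined library and 10.8 FPKM in the DBP library, beside 9.47 FPKM with DiBP and 23.0 FPKM in the control (0.98). ID2, a target of BMP signalling, was at 45.8 FPKM in the combined library and 105 FPKM in the DBP library, with 124 FPKM under DiBP and 70.4 FPKM in the control (-1.18). At both genes the single-compound libraries lay on one side and the combined library and the control on the other.

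Lipid carriers and enzymes went several ways, with 3 of 48 genes at least 1.5-fold higher and 8 lower (median -0.11). Over all genes 6.04% were higher and 12.4% lower. Under the other scalings 5 were higher and 5 to 8 lower, and the median passes above 0. apoeb, an apolipoprotein E gene, was at 2.36 FPKM in the combined library and 11.3 FPKM in the DBP library, beside 3.25 FPKM with DiBP and 0.851 FPKM in the control (-1.87). The fatty acid carrier gene fabp4a was at 8.79 FPKM in the combined library and 25.3 FPKM in the DBP library, beside 5.65 FPKM with DiBP and 1.55 FPKM in the control (-1.43). hadhaa, a subunit of the mitochondrial enzyme of fatty acid oxidation, was higher, at 34.8 FPKM in the combined library and 12.9 FPKM in the DBP library, with 19.0 FPKM under DiBP and 18.4 FPKM in the control (1.37). The combined library was thus the highest of the 4 at hadhaa, and lay between the control and the DBP library at both carriers.

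Cholesterol synthesis was one of the few lists with a median above 0 (0.07, or 0.15 to 0.22 under the other scalings), with 5 of 24 genes at least 1.5-fold higher and 2 lower. Beside these counts, 6.04% of all genes were higher and 12.4% lower. SC5D, a late enzyme of the pathway, was at 6.24 FPKM in the combined library and 2.64 FPKM in the DBP library, beside 8.0004 FPKM with DiBP and 6.92 FPKM in the control (0.99). MVD, of the mevalonate branch, was at 20.5 FPKM in the combined library and 10.7 FPKM in the DBP library, with 29.9 FPKM under DiBP and 32.9 FPKM in the control (0.88). At both, the DBP library was the low one, and MVD shares its values with another row. IDI1 and MVK, of the same branch, were lower in the combined library, at 2.16 and 12.2 FPKM against 5.45 and 24.1 FPKM with DBP alone.

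Antioxidant and glutathione genes had a median of -0.37 (-0.26 to -0.18 under the other scalings), with 6 of 37 at least 1.5-fold lower and 1 higher (3 or 4 lower under those scalings). Over all genes 12.4% were lower and 6.04% higher. The peroxiredoxin gene prdx5 was at 3.40 FPKM in the combined library and 8.48 FPKM in the DBP library, beside 3.08 FPKM with DiBP and 5.58 FPKM in the control (-1.11). GPX8, a glutathione peroxidase of the endoplasmic reticulum, was at 31.2 FPKM in the combined library and 59.0 FPKM in the DBP library, with 37.7 FPKM under DiBP and 136 FPKM in the control (-0.90). The xenobiotic list had 8 of 28 genes at least 1.5-fold lower and 0 higher (median -0.39, or -0.29 to -0.21). Transferases that couple foreign compounds to glutathione led it. gsta.1 was at 3.76 FPKM in the combined library and 10.9 FPKM in the DBP library, beside 4.05 FPKM with DiBP and 4.79 FPKM in the control (-1.33). MGST3 was at 28.0 FPKM in the combined library and 63.1 FPKM in the DBP library, beside 36.6 FPKM with DiBP and 34.9 FPKM in the control (-1.14). At both the DBP library was high and the other 3 were alike. The values of gsta.1 are shared with another row.

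The lowest differences among named genes held several rows at or near 0 in the combined library. SSR1, part of the translocon-associated complex of the endoplasmic reticulum, was at 0.0699 FPKM in the combined library and 40.9 FPKM in the DBP library, beside 0.0992 FPKM with DiBP and 0.0297 FPKM in the control. Every cell uses this complex, so such a near-zero value cannot be read as absence. GBA3, a cytosolic glucosidase, was listed at 0 in the combined library and at 17.6 FPKM in the DBP library, beside 0.0680 FPKM with DiBP and 7.21 FPKM in the control. ADCY8, an adenylate cyclase, was at 0.578 FPKM in the combined library and 21.9 FPKM in the DBP library, beside 0.594 FPKM with DiBP and 15.5 FPKM in the control (-3.86). At these 2 genes the DiBP-containing libraries were low and the others high. In all, 8 genes at 5 FPKM or more in the DBP library were listed at 0 in the combined library, and 2 the other way round.

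The forkhead gene foxf2b and the hairy-related gene her2 were high in both single-compound libraries. foxf2b was at 0.124 FPKM in the combined library and 15.2 FPKM in the DBP library, beside 34.1 FPKM with DiBP and 0.0316 FPKM in the control (-3.85). her2 was at 5.49 FPKM in the combined library and 38.4 FPKM in the DBP library, with 72.5 FPKM under DiBP and 0.358 FPKM in the control (-2.60). A gene with the symbol lectin, the most abundant of this ranking, was at 46.3 FPKM in the combined library and 362 FPKM in the DBP library, beside 472 FPKM with DiBP and 131 FPKM in the control (-2.94). The calcium-binding protein gene icn was high in the DBP library alone, at 0.923 FPKM in the combined library and 10.3 FPKM in the DBP library, beside 1.95 FPKM with DiBP and 0.736 FPKM in the control (-2.56).

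The counts of the next lists stand beside 6.04% of all genes at least 1.5-fold higher and 12.4% lower. Nuclear splicing factors had 6 of 65 genes at least 1.5-fold higher and 10 lower, a balance that turned to 10 higher and 3 lower at equal totals without the most abundant rows. Among the lower ones was hnrnpc at 23.1 FPKM in the combined library and 69.5 FPKM in the DBP library (-1.55). The unfolded protein response had 3 of 38 higher and 3 lower, with DNAJB9, a chaperone of the endoplasmic reticulum, at 10.3 FPKM in the combined library and 35.7 FPKM in the DBP library (-1.71). Lysosome and autophagy genes had 2 of 52 higher and 8 lower (3 and 5 under the other scalings), with the protease gene CTSB at 150 FPKM in the combined library and 313 FPKM in the DBP library (-1.06). Glycolysis and citrate cycle genes had 2 of 38 higher and 1 lower (median 0.00), and extracellular matrix genes 0 of 7 in either direction. Histone genes had 3 of 9 lower and 0 higher (median -0.35, or -0.24 to -0.15 under the other scalings). Theca and stromal markers had 1 of 5 lower, Notch and hairy-related genes 1 of 9 lower, prostaglandin and ovulation genes 1 of 9 higher, and muscle markers 0 of 4.

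DiBP was also given without DBP, and the difference between the DiBP library and the control uses neither of the 2 libraries compared above. Adding DiBP to DBP and giving DiBP alone went with medians of opposite sign at several gene lists. At the 1.5-fold level, 1650 genes were higher in the DiBP library than in the control (13.1%) and 2184 lower (17.3%). Ribosomal protein genes were at least 1.5-fold higher in the DiBP library than in the control at 33 of 82 genes and lower at 0 (median 0.45), against 0 higher and 29 lower in the combined library relative to DBP (median -0.46). Mitochondrially encoded genes had 5 of 13 rows higher and 0 lower with DiBP alone (median 0.39), against 13 of 13 lower for the combined library relative to DBP. MT-ND4 and mt-nd4l, both among the 5, share their values, and 4 were higher with DiBP alone when shared values were collapsed. At equal totals 3 were higher with DiBP alone and the median was 0.23. MT-CYB, MT-CO1, MT-CO2, MT-ATP6, MT-CO3 and mt-atp8 lay below 0 in both comparisons, so the opposite sign held for the complex I genes and not for these. Epithelial markers had medians of 0.64 with DiBP alone and -0.71 with DiBP added to DBP. The immediate-early list had medians above 0 in both, with 0.54 with DiBP alone and 0.10 with DiBP added to DBP, and the 3 hsp70 rows were also higher in both.

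Over all genes, the combined minus DBP difference and the DiBP minus control difference had a Pearson correlation of -0.161 and a Spearman correlation of -0.301 across 12603 genes, which share the expression filter and the annotation. Among the 237 genes at least 2-fold higher in the combined library, 96 (40.5%) were at least 1.5-fold higher in the DiBP library than in the control and 72 (30.4%) lower. Of the 490 genes at least 2-fold lower, 174 (35.5%) were higher in the DiBP library than in the control and 113 (23.1%) lower. These shares stand beside 13.1% and 17.3% of all genes. Both sets lay at lower levels than all genes, with medians of 6.61 FPKM in the combined library and 1.27 FPKM in the DBP library for the higher set, 2.44 and 8.72 FPKM for the lower set, and 9.16 and 9.71 FPKM for all genes. Whether the effect of DiBP depends on DBP cannot be tested with 1 library a group.

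**Figure D4:**
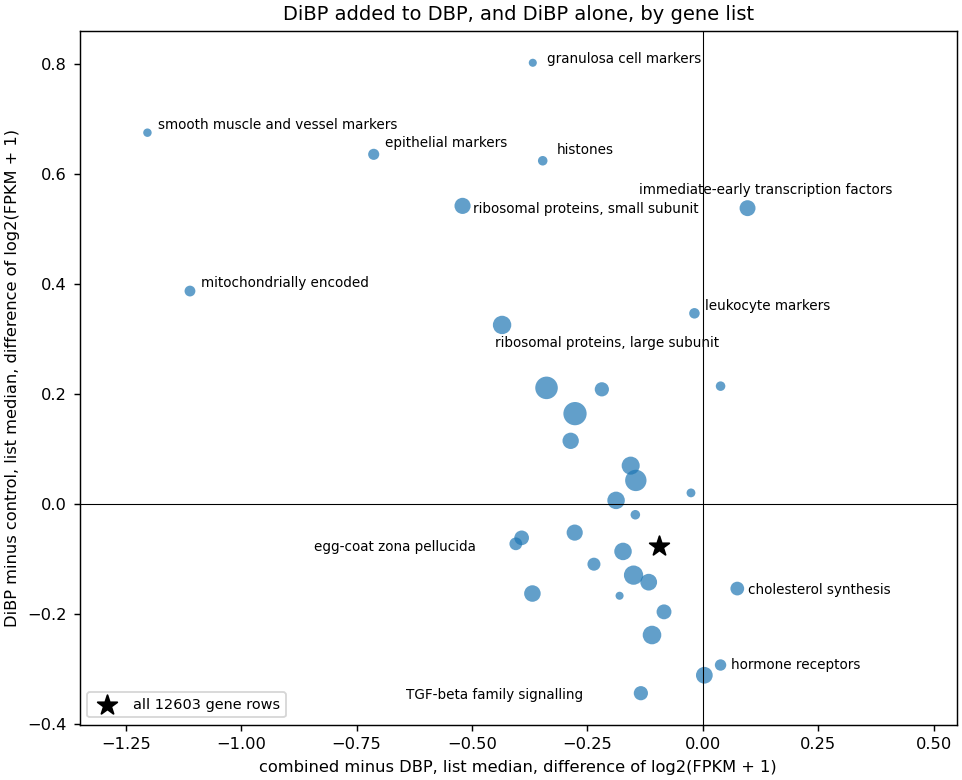
Median difference of each gene list with at least 5 measured members, as combined minus DBP (horizontal axis) and as DiBP minus control (vertical axis), both on the log2(FPKM + 1) scale, with points sized by the number of members and a star for all genes. Mitochondrially encoded genes, ribosomal proteins, smooth muscle, epithelial and granulosa markers lie at the upper left, lower in the combined library than with DBP alone and higher with DiBP than in the control. Some smooth muscle and granulosa rows, such as CNN2 and CYP19A1, pass the filter only through the DBP and DiBP libraries. The filter thus helps to place these small lists there. Without it the granulosa medians were -0.09 for combined minus DBP and 0.16 for DiBP minus control.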

How the data were processed

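The deposited tables hold 1 library each for 49610 rows, of which 35066 carry an Ensembl identifier and 14544 an identifier of a merged locus. No header or label names the unit. It was read from the values as FPKM made by the authors. HISAT2 and HTSeq 0.6.1 are listed, with build GRCz10 and no stated role, per the submitters' processing notes, and whether strand was used is not given in the sources used here. Per the file headers, the columns of the combined and DiBP tables are named T07 and T05, unlike their samples, and tables were assigned by the sample GEO lists them under. Per the labels' protocols, RNA was extracted with RNeasy, made into libraries with NEBNext Ultra and sequenced on an Illumina HiSeq.

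Symbols came from a table of identifiers (26996 of 35066 rows matched) and are printed as it gives them. Of the 12603 genes compared, 11644 have a symbol and 1424 share all 4 values with another gene, as merged loci do, leaving 11774 distinct sets of values. A gene sharing its value with another cannot be told from it, nor can overlapping genes.

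Differences are of log2(FPKM + 1), a pseudocount of 1, on deposited values without further scaling, and 2-fold and 1.5-fold refer to that scale. The 15 highest and 15 lowest named genes, the 10 most abundant and, from each of 37 gene lists, the 4 members furthest from 0 and the most abundant one could be named. Other genes (further MT genes, zpax4, FOXL2, cdh5, kdrl, tek, ERG, CLDN5, ptprc, lyz, the epithelial rows above 0 and the clone-named rows) were chosen after their values were seen. The comparison, the lists and the rules were chosen with earlier results of these data known. List symbols were matched without regard to case and, where lacking, without a final a or b. Relative depth is the commonest ratio among 1808 rows below 0.05 FPKM in both libraries, a step that held 132 of those rows. The code was tested on simulated data. Alternatives were the pseudocount, the filter, 3 scalings and the collapsing of shared values. The software was matplotlib 3.10.9, pandas 2.3.3, numpy 2.4.6, scipy 1.17.1 and Python 3.11.15.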

Additional observations from a re-analysis of the deposited data

Results flagged for a closer look

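Outside the genes compared, 2086 merged loci without a name reached a mean of 1 FPKM and shared no values with a named row. The most abundant of them in the combined library, MSTRG.30244, was at 13840 FPKM there and at 195 FPKM in the DBP library, beside 153 FPKM with DiBP and 808 FPKM in the control. It stood out because it belongs to no comparison and lies far above the control. It was the top row of the combined library, with 2.70% of its summed FPKM against 0.0341% in the DBP library, where it ranked number 445. Such loci were at least 2-fold higher in the combined library at 164 (7.86%) and lower at 188 (9.01%). Both shares lie above those of the genes compared, 1.88% higher and 3.89% lower, so large differences were commoner among these loci. A second one, MSTRG.6133, was listed at 0 in the combined library and at 1001 FPKM in the DBP library, beside 850 FPKM with DiBP and 622 FPKM in the control. An exact 0 beside such levels cannot be read as absence.

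Adding DiBP to DBP and giving DiBP alone had medians of opposite sign at 3 lists in which 5 or more members were at least 1.5-fold apart in each comparison, all on one side. The medians were -1.11 and 0.39 for mitochondrially encoded genes, -0.43 and 0.33 for large-subunit ribosomal proteins, and -0.52 and 0.54 for small-subunit ribosomal proteins, each as combined minus DBP and then DiBP minus control. Of the 13 mitochondrially encoded rows 6 lay below 0 in both comparisons, and the median of 0.39 was 0.23 at equal totals. That list reached 5 members higher with DiBP alone only because MT-ND4 and mt-nd4l, which share their values, both count. With shared values collapsed 4 were higher. The opposite sign was not tested, since there is 1 library a group.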

How the results depend on the processing

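The counts of genes at least 2-fold higher and lower in the combined library (237 and 490) were 428 and 813 with a pseudocount of 0.1, 81 and 179 with a pseudocount of 5, and 100 and 256 at a mean of at least 5 FPKM. They stayed within 1.5 times with no filter (284 and 551), with shared values collapsed (219 and 441) and under the 3 scalings. Of 36 lists with a measured member, 11 had medians that changed sign under a scaling, among them heat-shock chaperones, leukocyte markers, replication and the proteasome. Relative to all genes, the red blood cell markers, with 1 gene past the filter, had a median of -0.050 without a filter. No paired analysis was possible because each group has 1 library, and for the same reason no library could be left out. Depth limits low genes in particular, and FPKM gives no counting interval.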
